A study of Homo sapiens with 14 samples.

Results

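The hypoxia-inducible factor (HIF) genes described here are 10 genes chosen by name: HIF1A and EPAS1, which encode the oxygen-sensitive subunits HIF-1α and HIF-2α, and 8 genes widely used as readouts of HIF activity, CA9, ADM, NDRG1, EGLN3, BNIP3, ANKRD37, KDM3A and P4HA1. They are 10 of the 59471 gene names counted in each RNA-seq library, all 10 had counts in every library, and the rule that picks them uses their names alone, although the names were chosen with earlier results of these data known. The libraries came from SCC23, an established human head and neck squamous cell carcinoma (HNSCC) line. KMT2D-KO cells had been transfected with a Cas9 plasmid carrying a guide against KMT2D, a histone H3 lysine 4 methyltransferase gene, and KMT2D-WT cells with the same plasmid carrying a guide against LacZ, and transfected cells had been sorted by GFP. Cells were kept in high glucose medium (+Glc) or deprived of glucose for 6 h (−Glc). There were 3 KMT2D-WT and 4 KMT2D-KO libraries in each glucose condition, from 2 experiments, with the KMT2D-KO libraries labelled as line KO1 or line KO2. The lines carried different KMT2D guides, and the methods describe culture of the sorted cells and no isolation of single clones. No library was made under low oxygen.

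HIF-1α and HIF-2α are made continuously and, while oxygen is present, are hydroxylated on prolines by the EGLN enzymes, bound by the VHL ubiquitin ligase and degraded. When hydroxylation fails, they pair with ARNT, bind the core letters RCGTG in DNA, recruit the coactivators CREBBP and EP300 and raise transcription of genes for oxygen delivery, glycolysis, pH control, mitophagy and collagen modification. Because the control acts on the protein, the RNA of HIF1A or EPAS1 is not a measure of HIF activity, and several target genes also respond to other stress pathways.

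RefSeq promoter windows (GRCh38.p14, from 250 bases before to 50 after the annotated start) were found for 9 of the 10 genes; NDRG1 had no entry. The letters ACGTG or GCGTG, the HIF core, were searched on both strands, so that CACGT and CACGC were counted as matches on the opposite strand. At least 1 match lay in a window of 8 of the 9 genes, and EGLN3 had none, while 48.4% of all 35116 windows had a match. For ACGTG alone the count was 4 of the 9 genes, beside 21.4% of all windows. These counts are of genes and the shares are of windows, and HIF1A and KDM3A had 2 windows each. BNIP3 had 6 matches, all at positions −143 to −104 from its start, and ANKRD37 had 3. In both genes 1 pair of matches overlapped, since the letters CACGTG read the same on both strands. HIF1A, with 1 match in 1 of its 2 windows, and KDM3A, with 1 match in each of 2 overlapping windows, are not printed.

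The 180 bases before the start are given here, 5′ to 3′ on the gene's strand with the matches in capitals. They are shown for the genes with a match whose RNA differed in at least 1 comparison of the genotypes or glucose conditions. CA9 and ANKRD37, which had a match but did not differ in any comparison of the groups, are shown as well.
EPAS1 (chr2:46297227-46297406, plus strand): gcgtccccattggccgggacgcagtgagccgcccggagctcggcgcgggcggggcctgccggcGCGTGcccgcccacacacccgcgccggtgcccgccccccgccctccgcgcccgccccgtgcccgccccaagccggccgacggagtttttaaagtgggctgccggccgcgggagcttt
ADM (chr11:10304893-10305072, plus strand): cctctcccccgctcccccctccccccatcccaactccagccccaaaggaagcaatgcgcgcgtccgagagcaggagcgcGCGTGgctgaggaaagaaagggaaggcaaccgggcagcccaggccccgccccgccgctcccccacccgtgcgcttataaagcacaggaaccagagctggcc
BNIP3 (chr10:131981924-131982103, minus strand): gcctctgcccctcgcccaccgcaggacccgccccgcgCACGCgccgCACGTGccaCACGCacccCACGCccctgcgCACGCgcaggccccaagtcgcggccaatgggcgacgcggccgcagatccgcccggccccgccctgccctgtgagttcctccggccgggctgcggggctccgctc
P4HA1 (chr10:73096867-73097046, minus strand): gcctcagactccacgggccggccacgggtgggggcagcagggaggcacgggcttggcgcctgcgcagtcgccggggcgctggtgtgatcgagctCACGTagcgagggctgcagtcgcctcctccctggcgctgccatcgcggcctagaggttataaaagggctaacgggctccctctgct
CA9 (chr9:35673748-35673927, plus strand): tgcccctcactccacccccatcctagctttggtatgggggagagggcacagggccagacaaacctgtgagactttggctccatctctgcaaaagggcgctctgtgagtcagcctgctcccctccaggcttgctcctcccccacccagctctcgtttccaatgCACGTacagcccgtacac
ANKRD37 (chr4:185396661-185396840, plus strand): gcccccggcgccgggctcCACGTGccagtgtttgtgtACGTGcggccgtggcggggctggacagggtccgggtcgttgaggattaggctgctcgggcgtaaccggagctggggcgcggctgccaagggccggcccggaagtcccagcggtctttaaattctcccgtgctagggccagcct
A match is a stretch of letters and not a measured binding site, and no binding of HIF was measured here.

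Total counts ranged from 15669154 to 62968057 per library. The 4 libraries of experiment 2 kept in glucose had each mate of a pair counted, and all others were counted as single reads, so that in experiment 2 the glucose contrast and the way of counting cannot be told apart; experiment 1 is free of this. In experiment 2 without glucose, both KMT2D-WT libraries were nearly alike, and so were the libraries labelled KO1 and KO2 (chi-square per gene of 1.71 and 1.78, against 25.9 to 83.0 in other pairs of a genotype), so their labels as separate lines are in doubt. KMT2D RNA with glucose was at 279, 266 and 271 CPM in KMT2D-WT, at 182 and 184 CPM in line KO1 and at 323 and 373 CPM in line KO2, so it was lower in KO1 and higher in KO2, and the difference between genotypes was not called (log2 fold change −0.02 ± 0.25 SE, edgeR adjusted p = 0.967). Without glucose it was at 230.5 to 239 CPM in KMT2D-WT and lower in all 4 KMT2D-KO libraries, at 19.9, 190.2, 152 and 145 CPM, but again not called (−0.90 ± 0.60, adjusted p = 0.247). With glucose, the RNA level thus does not check the KO2 label. The count covers all exons and not the cut site alone. For KMT2D-KO SCC23 cells the paper reports KMT2D mutations by genomic sequencing and the knockout by western blot.

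The KO1 library of experiment 1 without glucose stood apart. It held KMT2D at 19.9 CPM against 145 to 190.2 in the other 3 KMT2D-KO libraries without glucose, EP300 at 61.7 against 132 to 162, CREBBP at 88.8 against 203 to 274 and KDM3A at 37.7 against 64.3 to 88.4; its part in the results was not tested beyond leaving it out. Without it, the genes called without glucose numbered 6136 higher and 6312 lower in place of 4342 and 4179.

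The summed CPM of 6 squamous epithelial markers was 954 to 1090 in KMT2D-WT and 539 to 1090 in KMT2D-KO libraries with glucose. Without glucose it was 1160 to 1210 and 863 to 2750. With glucose KRT14 (26.5 to 136.5 against 185 to 244 CPM) and DSP (312 to 488 against 521 to 607 CPM) were lower in KMT2D-KO libraries without overlap. KRT5 ranged from 1.5 to 166 CPM in those libraries. Without glucose KRT17 was higher in KMT2D-KO without overlap (366 to 1303 against 137 to 215 CPM). In each condition the other squamous markers overlapped. The sum of 4 immune markers was at most 0.184. The sum of 3 endothelial markers was 0.422 to 1.18 in KMT2D-WT and 0.304 to 4.11 in KMT2D-KO libraries with glucose, and without glucose it was 0.388 to 0.8 against 2.19 to 3.31, without overlap. Most of the sum without glucose was CDH5 alone, at 0.353 to 0.741 CPM in KMT2D-WT and 2.01 to 3.31 CPM in KMT2D-KO libraries. PECAM1 was at 0 in those KMT2D-KO libraries, and VWF at most at 0.19 CPM. The sum of 4 fibroblast markers was 12.4 to 20.7 in KMT2D-KO against 5.73 to 7.04 in KMT2D-WT libraries with glucose, and 7.20 to 14 against 3.17 to 5.53 without. Most of it was COL1A1, at 11.5 to 16.0 against 5.00 to 6.92 CPM with glucose, and 7.20 to 13.9 against 3.03 to 5.53 CPM without. With glucose COL1A2 overlapped between the genotypes (0 to 5.34 against 0 to 0.858 CPM), and mean LUM was lower in KMT2D-KO (0.0255 against 0.132 CPM). What part the squamous, endothelial and fibroblast markers had in the results was not tested.

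The genes lie on 7 chromosomes of GRCh38. In the annotation that was counted, ADM spans bases 10305073 to 10307397 of chromosome 11, EPAS1 bases 46293667 to 46386697 of chromosome 2, EGLN3 bases 33924227 to 34462774 of chromosome 14 and NDRG1 bases 133237175 to 133302022 of chromosome 8, and all exons of a gene were counted together. Levels are given as CPM, counts divided by the library total and put on a common scale, after TMM scaling, and genes were compared with each other as CPM per kilobase of exon. CPM is a share of the RNA in a library, so a change in some cells and a smaller change in all cells cannot be told apart. By the median over all 14 libraries, ADM was the most abundant at 53.6 CPM per kilobase, followed by HIF1A (38.1), P4HA1 (14.3), BNIP3 (12.2), EPAS1 (5.72), KDM3A (4.37), NDRG1 (1.57), ANKRD37 (0.50), CA9 (0.36) and EGLN3 (0.25). Neighbours in this order had overlapping ranges, as ADM (24.6 to 223) and HIF1A (24.6 to 56.7) did, except that HIF1A lay above P4HA1 (11.1 to 19.1) in every library. Across the libraries, NDRG1 varied 17.8-fold and ADM 9.07-fold in this level, whereas P4HA1 varied 1.71-fold and BNIP3 1.77-fold. CA9, the carbonic anhydrase that is a standard hypoxia marker, varied 19.4-fold but had only 4 to 41 counts per library. Part of CA9 (36.1% of its exonic bases) and of ANKRD37 (40.3%) overlaps exons of ARHGEF39 and UFSP2, and the counting did not use strand, so reads from such stretches cannot be assigned with certainty; 39 BNIP3 pseudogenes named in the annotation could share reads with BNIP3.

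**Figure D1:**
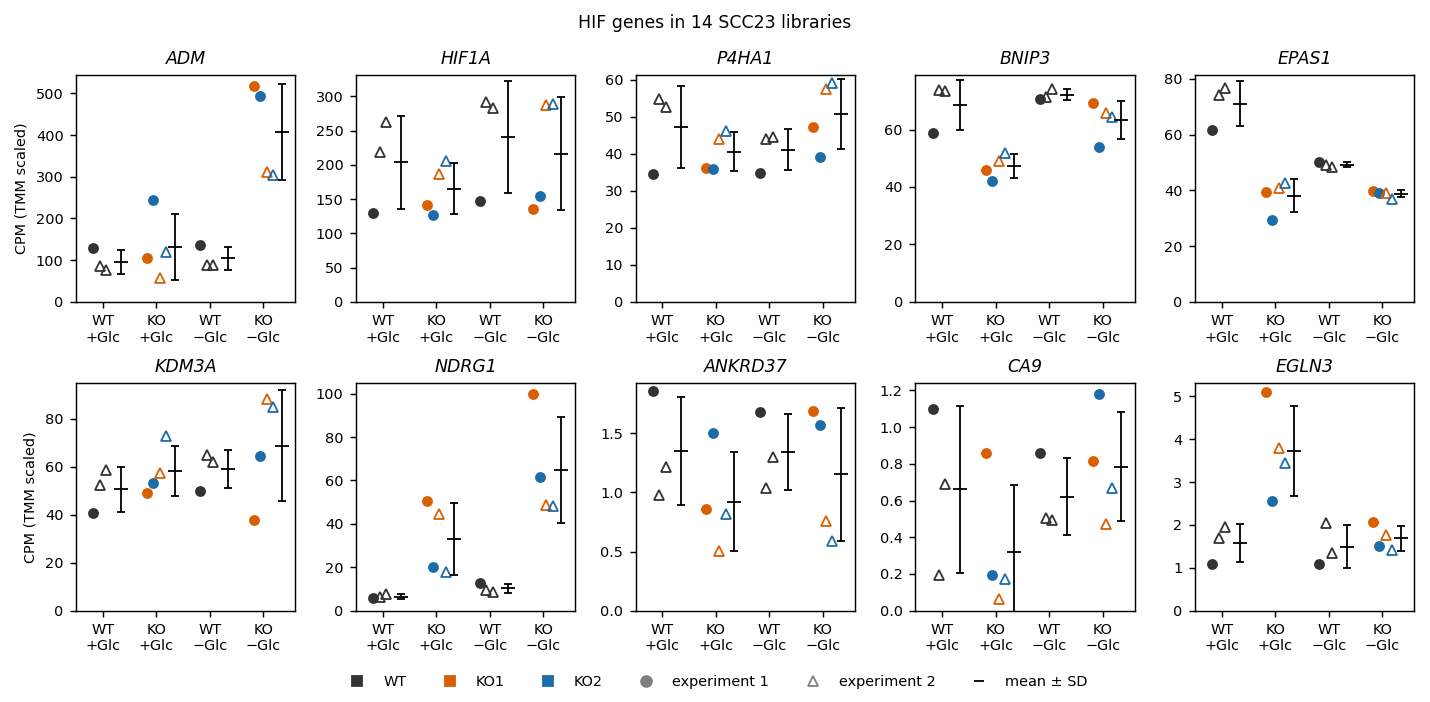
CPM of each HIF gene (vertical axes, linear from 0) in the 14 libraries by genotype and glucose condition; colours give the line as labelled, filled circles experiment 1 and open triangles experiment 2, and bars the group mean ± SD, clipped at 0. NDRG1 was 17.6 to 50.4 CPM in KMT2D-KO and 5.61 to 7.50 in KMT2D-WT cells with glucose, and ADM was 305 to 518.5 in KMT2D-KO and 88.4 to 136 in KMT2D-WT cells without glucose.

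The first comparison asks how loss of KMT2D altered these genes in cells kept in glucose. NDRG1 and EGLN3 rose and EPAS1 and BNIP3 fell in KMT2D-KO cells, while the other 6 genes were not called. The calls among the 10 genes thus went in both directions. A gene was called when its Benjamini-Hochberg adjusted p over all 20423 genes tested was under 0.05 in edgeR's quasi-likelihood test with experiment as covariate. Of all genes tested, 13.0% were called higher and 11.7% lower, against 2 of 10 and 2 of 10 here. The median log2 fold change of the 10 genes was −0.14, beside 0.02 for all genes. All KMT2D-KO libraries lay above all KMT2D-WT libraries for 9.66% of genes and below them for 10.4%. Among the 10 genes this held for 2 above (NDRG1 and EGLN3) and 2 below (EPAS1 and BNIP3).

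NDRG1, a cytoplasmic protein induced by hypoxia and other stresses, was at 5.61, 6.30 and 7.50 CPM in the KMT2D-WT libraries. It was at 50.4 and 44.3 CPM in line KO1 and at 20.04 and 17.6 CPM in line KO2, in experiments 1 and 2. The genotypes did not overlap, and within KMT2D-KO cells line KO1 was above line KO2 in both experiments. The rise was 5.08-fold (log2 fold change 2.35 ± 0.40 SE, adjusted p = 0.00313). Against KMT2D-WT alone, the log2 fold change was 2.87 for KO1 and 1.54 for KO2.

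EGLN3 encodes the prolyl hydroxylase PHD3, an inhibitor of HIF that is itself a HIF target. It was scarce, at 1.10, 1.70 and 1.96 CPM in KMT2D-WT and 5.10, 2.57, 3.8 and 3.43 CPM in KMT2D-KO libraries. All KMT2D-KO libraries lay above all KMT2D-WT libraries, a rise of 2.38-fold (log2 fold change 1.25 ± 0.30 SE, adjusted p = 0.0146). The call was lost when either KMT2D-WT replicate 1 (log2 fold change 0.97) or replicate 2 (1.28) was left out.

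EPAS1 was at 61.8, 74.4 and 76.9 CPM in KMT2D-WT and at 39.3, 29.4, 40.8 and 42.6 CPM in KMT2D-KO libraries. Every KMT2D-KO library was below every KMT2D-WT library, and EPAS1 fell 1.80-fold (log2 fold change −0.85 ± 0.10 SE, adjusted p = 0.000548). Both lines were lower, with log2 fold changes of −0.79 for KO1 and −0.91 for KO2. The other subunit gene, HIF1A, was at 127 to 141 CPM in experiment 1 and 186 to 262 CPM in experiment 2. In experiment 2 both KMT2D-KO libraries (186 and 206 CPM) were below both KMT2D-WT libraries (219 and 262 CPM), but in experiment 1 KMT2D-WT (129.6 CPM) lay between KO2 and KO1, and the log2 fold change was −0.16 ± 0.11 (adjusted p = 0.339).

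BNIP3, a mitochondrial outer membrane protein that acts as a mitophagy receptor, was at 58.6, 73.9 and 73.5 CPM in KMT2D-WT and at 46.0, 42.0, 49.0 and 52.0 CPM in KMT2D-KO libraries. The genotypes did not overlap and BNIP3 fell 1.40-fold (log2 fold change −0.49 ± 0.08 SE, adjusted p = 0.00306).

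ADM encodes the secreted vasodilator peptide adrenomedullin and split by line. It was at 129, 84.8 and 75.4 CPM in KMT2D-WT libraries, at 106 and 57.1 CPM in line KO1 and at 243 and 120.3 CPM in line KO2. In each experiment KO1 was the lowest and KO2 the highest, so the mean over both lines was not called (log2 fold change 0.27 ± 0.31 SE, adjusted p = 0.591). The contrast with KMT2D-WT was −0.40 for KO1 (adjusted p = 0.00571) and 0.74 for KO2 (adjusted p = 2.03e-05).

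A test of line KO2 against line KO1 in the 4 KMT2D-KO libraries with glucose, with experiment as covariate, was added after these values were seen. ADM was 2.2-fold higher in KO2 (log2 fold change 1.14 ± 0.07 SE, adjusted p = 1.66e-15), NDRG1 fell by 1.33 on the log2 scale (± 0.10, adjusted p = 1.68e-13), and KDM3A, a histone H3 lysine 9 demethylase, was 1.18-fold higher (0.25 ± 0.08, adjusted p = 0.0296). Of 19041 genes tested, 12.6% were higher and 11.4% lower in KO2, against 2 and 1 of the 9 HIF genes tested. CA9 was not tested because of its low counts. The fit had 1 library for each line and experiment, so its error rests mostly on the spread shared by all genes.

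The remaining genes were not called with glucose. CA9 (log2 fold change −1.57 ± 0.66 SE, adjusted p = 0.12) and ANKRD37 (−0.69 ± 0.31, adjusted p = 0.141) had low values in KMT2D-KO cells, but CA9 had 4 to 14 counts in those libraries and 13 to 41 in KMT2D-WT libraries. KDM3A (0.28 ± 0.11, adjusted p = 0.0928) and P4HA1, the catalytic subunit of collagen prolyl 4-hydroxylase (−0.13 ± 0.10, adjusted p = 0.409), differed by less than the test could resolve.

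**Figure D2:**
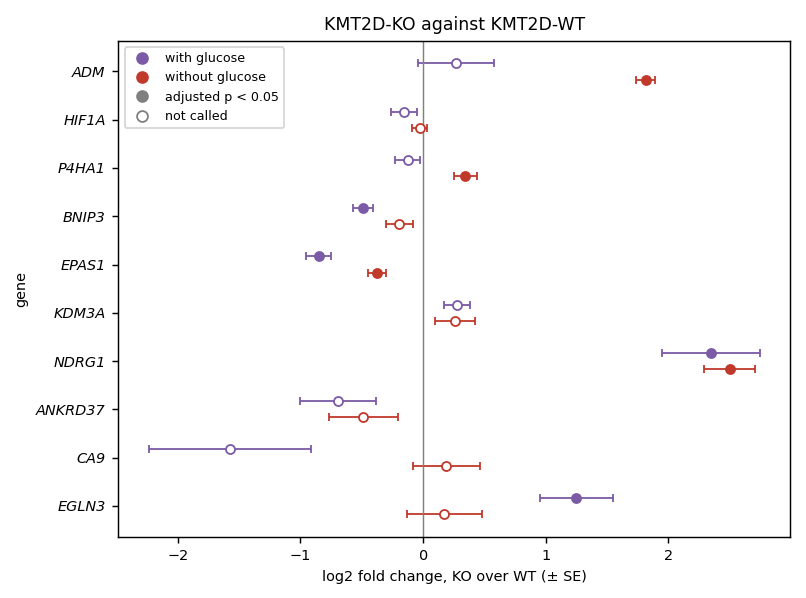
Log2 fold change of KMT2D-KO over KMT2D-WT (horizontal axis, ± SE) for each HIF gene, with glucose and without; filled points had an adjusted p under 0.05. ADM was at 0.27 with and 1.82 without glucose, EGLN3 at 1.25 and 0.17, and NDRG1 above 2 in both.

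Without glucose, NDRG1, ADM and P4HA1 were higher and EPAS1 lower in KMT2D-KO than in KMT2D-WT cells. This is 3 and 1 of the 10 genes, while 25.9% of the 16782 genes tested were called higher and 24.9% lower. The median log2 fold change of the 10 genes was 0.18, beside 0.00 for all genes. All KMT2D-KO libraries lay above all KMT2D-WT libraries for 16.3% of genes and below them for 18.9%. Among the 10 genes this held for 2 above (ADM and NDRG1) and 2 below (EPAS1 and BNIP3). Scaling by library size alone gave 2726 genes higher and 6295 lower in place of 4342 and 4179, with a median log2 fold change over all genes of −0.25 that moves every value below by about as much.

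ADM was at 136, 89.3 and 88.4 CPM in the KMT2D-WT libraries and at 518.5 and 494 CPM in lines KO1 and KO2 of experiment 1. The libraries of experiment 2 labelled KO1 and KO2 held 312 and 305 CPM. The lowest KMT2D-KO library was thus 305 CPM against a highest KMT2D-WT value of 136 CPM, and ADM was 3.52-fold higher (log2 fold change 1.82 ± 0.08 SE, adjusted p = 3.11e-05). The ratio to KMT2D-WT in the same experiment was 3.8, 3.62, 3.51 and 3.44, in contrast to the opposite directions of both lines with glucose.

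NDRG1 was at 12.7, 9.51 and 8.67 CPM in KMT2D-WT and at 100.1, 61.8, 48.5 and 48.2 CPM in KMT2D-KO libraries, again without overlap. It was 5.65-fold higher (log2 fold change 2.50 ± 0.21 SE, adjusted p = 0.000164). EPAS1 was at 50.1, 49.2 and 48.6 CPM in KMT2D-WT and at 39.9, 39.1, 38.9 and 37.0 CPM in KMT2D-KO libraries. That difference was 1.3-fold (log2 fold change −0.37 ± 0.07, adjusted p = 0.00493), smaller than with glucose, and the call was lost when the close pairs of experiment 2 were each summed to 1 library (−0.35). With scaling by library size the value was −0.63.

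P4HA1 was at 34.7, 44.0 and 44.5 CPM in KMT2D-WT and at 47.1, 39.0, 57.5 and 59.1 CPM in KMT2D-KO libraries. The groups overlapped, and the 1.27-fold difference (log2 fold change 0.34 ± 0.10 SE, adjusted p = 0.0224) lost its call when any KMT2D-WT library or either KMT2D-KO library of experiment 2 was left out, with values of 0.30 to 0.38 over all libraries left out in turn, and with scaling by library size (0.09). BNIP3 was at 70.8, 71.5 and 74.3 CPM in KMT2D-WT and at 69.4, 54.0, 65.8 and 64.2 CPM in KMT2D-KO libraries, a log2 fold change of −0.20 ± 0.11 that was not called (adjusted p = 0.183), although with scaling by library size it was −0.45 and called. EGLN3 was at 1.09, 2.04 and 1.34 against 2.07, 1.51, 1.76 and 1.42 CPM, with overlapping groups and a log2 fold change of 0.17 ± 0.31 (adjusted p = 0.667). HIF1A was at 135 to 155 CPM in experiment 1 and 283 to 292 CPM in experiment 2, with a log2 fold change of −0.03 ± 0.06 (adjusted p = 0.737). CA9 (0.19 ± 0.27), ANKRD37 (−0.49 ± 0.28) and KDM3A (0.26 ± 0.17) were not called. Leaving out the KO1 library of experiment 1, which stood apart, KDM3A (0.39, edgeR adjusted p = 1.72e-07) was called higher and BNIP3 (−0.27, adjusted p = 3.56e-05) lower. The values of ADM (1.78), NDRG1 (2.33), EPAS1 (−0.40) and P4HA1 (0.30) kept their calls. In that fit 6136 of all genes were called higher and 6312 lower. Its error rests in large part on the nearly alike pairs of experiment 2, so these adjusted p-values may reflect technical spread.

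The next comparisons ask what 6 h without glucose did within each genotype. In KMT2D-WT cells 1 of the 10 genes, EPAS1, was lower and none was higher, beside 7.58% of 17227 genes lower and 7.15% higher. All libraries without glucose lay above all those with glucose for 9.54% of genes and below them for 12.2%. Among the 10 genes this held for 1 above (NDRG1) and 1 below (EPAS1). EPAS1 went from 61.8, 74.4 and 76.9 CPM to 50.1, 49.2 and 48.6 CPM, without overlap, a 1.43-fold fall (log2 fold change −0.51 ± 0.08 SE, adjusted p = 0.0246). The call was lost when any 1 of the 4 KMT2D-WT libraries of experiment 2 was left out (−0.62 to −0.47 over all libraries left out in turn), and with the close pairs summed only 1 gene of all was called lower and none higher. In experiment 2 this contrast cannot be told apart from the way of counting. Experiment 1, which is free of this, had EPAS1 at 61.8 CPM with and 50.1 CPM without glucose in KMT2D-WT (0.81-fold). In edgeR's test 3 of the 10 genes had an unadjusted p under 0.05 and a positive log2 fold change that was not called. These were NDRG1 (0.66 ± 0.20, edgeR adjusted p = 0.0769), HIF1A (0.24 ± 0.08, adjusted p = 0.0856) and KDM3A (0.24 ± 0.06, adjusted p = 0.06). DESeq2 with the same covariate called 3 of the 10 genes higher. ADM did not change by the test, at 75.4 to 129 CPM with and 88.4 to 136 CPM without glucose (0.13 ± 0.06, adjusted p = 0.148).

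In KMT2D-KO cells ADM, BNIP3 and P4HA1 rose and EGLN3 fell without glucose, 3 and 1 of the 10 genes, beside 14% of 16057 genes higher and 16.0% lower. All libraries without glucose lay above all those with glucose for 9.24% of genes and below them for 13%. Among the 10 genes this held for 2 above (ADM and BNIP3) and 1 below (EGLN3). Scaling by library size alone gave 1005 genes higher and 3893 lower in place of 2240 and 2573. ADM went from 57.1 to 243 CPM to 305 to 518.5 CPM, a 3.13-fold rise (log2 fold change 1.65 ± 0.30 SE, adjusted p = 0.00822) that was called in every alternative run. In experiment 1 the rise was 4.89-fold in line KO1 and 2.03-fold in line KO2, against 1.06-fold in KMT2D-WT.

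EGLN3 was the gene that moved the other way, from 2.57 to 5.10 CPM to 1.42 to 2.07 CPM, a 2.24-fold fall without overlap (log2 fold change −1.16 ± 0.29 SE, adjusted p = 0.0208). The KMT2D-WT libraries without glucose were at 1.09 to 2.04 CPM. BNIP3 rose 1.32-fold (0.40 ± 0.10, adjusted p = 0.0235), from 42.0 to 52.0 CPM to 54.0 to 69.4 CPM. P4HA1 rose 1.23-fold with an adjusted p at the threshold (0.29 ± 0.09, adjusted p = 0.0499), from 35.9 to 46.1 CPM to 39.0 to 59.1 CPM. The calls of EGLN3, BNIP3 and P4HA1 were lost when 5, 6 and 7 of the 8 libraries, respectively, were left out in turn, and when the close pair was summed; EGLN3 then ranged from −1.33 to −0.94, BNIP3 from 0.33 to 0.48 and P4HA1 from 0.26 to 0.38. Leaving out the KO1 library of experiment 1 without glucose, which stood apart, HIF1A (0.41) and KDM3A (0.37) were called higher as well and P4HA1 (0.26) was not called. With scaling by library size, BNIP3 (0.20) and P4HA1 (0.09) were not called.

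**Figure D3:**
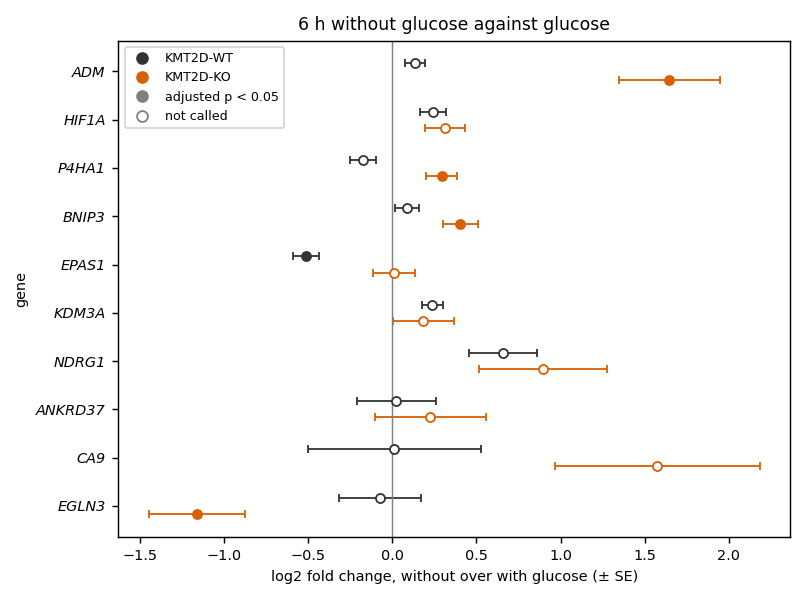
Log2 fold change of 6 h without glucose over glucose (horizontal axis, ± SE) for each HIF gene in KMT2D-WT and KMT2D-KO cells; filled points had an adjusted p under 0.05. ADM was at 0.13 in KMT2D-WT and 1.65 in KMT2D-KO cells, and EPAS1 at −0.51 and 0.01.

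Experiment 1 had 1 library of each line with and 1 without glucose, all counted in the same way, and gives the glucose effect as 3 pairs. NDRG1 was the HIF gene called there, with an adjusted p of 0.0141 (log2 fold change 1.24 ± 0.18 SE), 1 of 10 beside 0.479% of 16066 genes higher and 0.622% lower; with scaling by library size it was 1.09 and not called. It rose 2.25-fold in KMT2D-WT, 1.98-fold in KO1 and 3.08-fold in KO2. In experiment 2 NDRG1 went from 6.30 and 7.50 to 9.51 and 8.67 CPM in KMT2D-WT cells, but with the library labelled KO1 it went from 44.3 to 48.5 and with that labelled KO2 from 17.6 to 48.2 CPM, and the line labels of those libraries without glucose are the ones in doubt. ADM had a log2 fold change of 1.10 ± 0.31 over the 3 pairs (adjusted p = 0.104). EGLN3 stayed at 0.99-fold in KMT2D-WT and was 0.41-fold in KO1 and 0.59-fold in KO2 (−0.75 ± 0.41, adjusted p = 0.342). BNIP3 was above its paired value in all 3 lines (1.21-, 1.51- and 1.29-fold), with an adjusted p of 0.216. EPAS1 was 0.81-fold in KMT2D-WT, 1.02-fold in KO1 and 1.33-fold in KO2, and was not called (0.02 ± 0.18, adjusted p = 0.964). CA9 was 6.08-fold in KO2, from 4 to 21 counts, but 0.79- and 0.95-fold in KMT2D-WT and KO1.

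**Figure D4:**
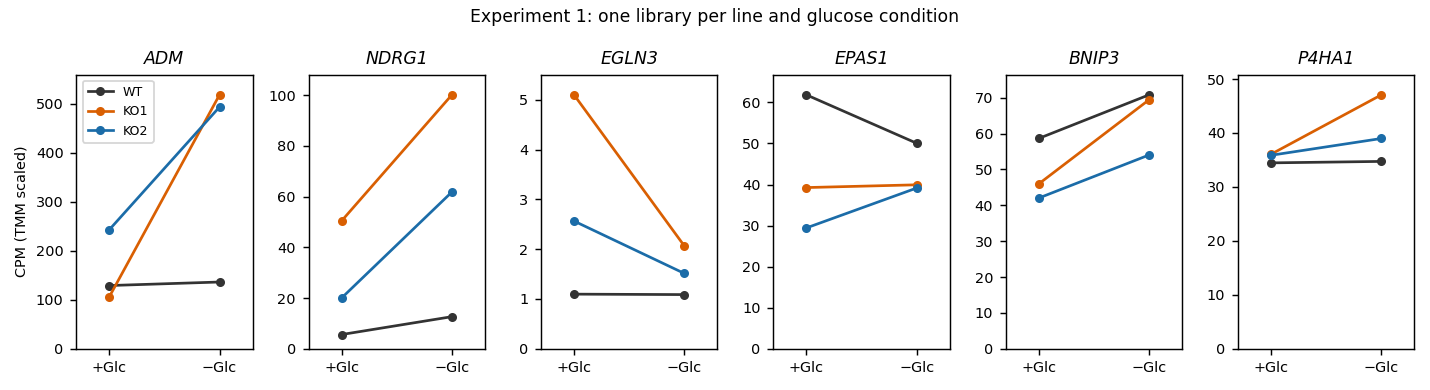
CPM (vertical axes, linear from 0) of 6 HIF genes in experiment 1, with lines joining the 1 library with and the 1 library without glucose of KMT2D-WT, KO1 and KO2. NDRG1 is higher without glucose in all 3 lines, and ADM in KO1 (106 to 518.5 CPM) and KO2 (243 to 494 CPM) but at 129 and 136 CPM in KMT2D-WT.

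Whether the effect of the genotype depended on glucose was tested as an interaction over all 14 libraries, with experiment as a covariate within each glucose condition. ADM, EPAS1 and P4HA1 were called, all with a more positive KMT2D-KO effect without glucose, 3 of 10 beside 4.73% of 18678 genes in that direction and 6.54% in the other. With scaling by library size these 2 shares turned far apart (264 against 2402 genes, in place of 884 against 1221). The difference was 1.57 ± 0.37 SE on the log2 scale for ADM (adjusted p = 0.0188), 0.50 ± 0.13 for EPAS1 (adjusted p = 0.0312) and 0.49 ± 0.13 for P4HA1 (adjusted p = 0.0311). None of the 3 held in every alternative. With a separate mean for each genotype, glucose condition and experiment, all 3 calls were lost (ADM 1.55, adjusted p = 0.0563, EPAS1 0.50, adjusted p = 0.0771, and P4HA1 0.45, adjusted p = 0.0687). Leaving out 1 library ended the call of ADM for 5 of the 14 libraries, all of them KMT2D-WT, and those of EPAS1 and P4HA1 for 9 each. With scaling by library size the differences of EPAS1 and P4HA1 were both 0.27 and not called. The ADM difference was 1.32 to 1.86 with 1 library left out, lost its call with the close pairs summed (1.59), and was 1.46 and 1.65 in experiments 1 and 2 taken separately. NDRG1 had an interaction of 0.18 ± 0.48 (adjusted p = 0.851), so a dependence of its KMT2D-KO effect on glucose was not detectable with this spread, and EGLN3 had −1.06 ± 0.44 (adjusted p = 0.14).

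Other genes of the pathway were counted from 3 lists, which were written with earlier results of these data known. Of 14 regulators of HIF, 12 could be tested. With glucose 3 were called in KMT2D-KO cells, beside 13.0% of all genes higher and 11.7% lower. The 3 were higher: ELOB (log2 fold change 0.71, adjusted p = 0.00184) and ELOC (0.57, adjusted p = 0.00117), elongins of the VHL ligase, and the coactivator gene CREBBP (0.58, adjusted p = 0.000863). Without glucose 3 were higher and 3 lower of the 12, a share near that of all genes (25.9% and 24.9%). CITED2, which competes with HIF for the coactivators CREBBP and EP300, was at 17.7 to 21.7 CPM in KMT2D-WT and at 90.2 to 115 CPM in KMT2D-KO libraries (2.28 ± 0.09 SE, adjusted p = 3.11e-05). With glucose it was at 16.5 to 20.2 and 18.9 to 26.0 CPM, and its interaction was 1.98 ± 0.17 (adjusted p = 6.9e-05). The other 2 genes called higher without glucose were again ELOB and ELOC. The 3 genes called lower were HIF1AN, the asparagine hydroxylase that blocks HIF's coactivator contact (−0.60, adjusted p = 0.000841), EGLN1, the main prolyl hydroxylase (−0.41, adjusted p = 0.041), and VHL (−0.35, adjusted p = 0.0157).

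Of 20 sugar metabolism targets of HIF, 4 were higher and 4 lower in KMT2D-KO cells with glucose (19 tested) and 9 higher and 4 lower without (18 tested), with medians of 0.17 and 0.36 beside 0.02 and 0.00 for all genes. Over all genes 13.0% were higher and 11.7% lower with glucose and 25.9% and 24.9% without. PGK1, a glycolytic kinase, was at 267 to 339 CPM in KMT2D-WT and 440.2 to 608 CPM in KMT2D-KO libraries with glucose (log2 fold change 0.78 ± 0.08 SE, adjusted p = 0.000249), and 297 to 362 against 614 to 807 CPM without (1.03 ± 0.09, adjusted p = 0.000198). SLC16A3, which encodes the lactate exporter MCT4, went the other way, at 44.0 to 80.0 CPM in KMT2D-WT and 23.4 to 32.4 CPM in KMT2D-KO libraries with glucose (−1.25 ± 0.15, adjusted p = 0.000477), and was also lower without (−1.11 ± 0.07, adjusted p = 6.63e-05). The glycogen branching enzyme gene GBE1 was lower in both (−1.07, adjusted p = 0.000246, and −0.90, adjusted p = 0.000108). On glucose deprivation 4 of 19 were called higher in KMT2D-WT (7.15% of all genes) and 8 of 19 in KMT2D-KO cells (14% of all genes). SLC2A1, the glucose transporter GLUT1, was called in both (0.53, edgeR adjusted p = 0.0168, and 0.91, adjusted p = 0.002). In experiment 2 this contrast cannot be told apart from the way of counting. Over the pairs of experiment 1, 0 of 19 were called, beside 0.479% of all genes higher and 0.622% lower. Their median there was 0.27, beside −0.02 for all genes, and SLC2A1 was at 0.75 (edgeR adjusted p = 0.0514).

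Of 37 other HIF targets, 8 were higher and 5 lower with glucose (35 tested), and 15 higher and 6 lower without (33 tested), with medians of 0.16 and 0.21, beside the same shares of all genes (13.0% and 11.7%, and 25.9% and 24.9%). STC2, a secreted glycoprotein, was at 4.61 to 6.16 CPM in KMT2D-WT and 47.5 to 90.8 CPM in KMT2D-KO libraries with glucose (log2 fold change 3.57 ± 0.24 SE, adjusted p = 4.75e-05), and at 25.1 to 36.6 and 125 to 550.4 CPM without (3.64 ± 0.50, adjusted p = 0.00118). It also rose with glucose deprivation in KMT2D-WT (2.40, adjusted p = 0.0128) and KMT2D-KO cells (2.48, adjusted p = 0.00743). EDN1, the precursor of the vasoconstrictor endothelin-1, was at 151 to 181 CPM in KMT2D-KO cells without glucose against 15.0 to 15.7 CPM in KMT2D-WT (3.37 ± 0.09, adjusted p = 1.96e-05). With glucose it was at 6.03 to 12.3 CPM in KMT2D-WT, 13.8 and 14.3 CPM in KO1 and 36.8 and 28.3 CPM in KO2, and was also called higher (1.33 ± 0.36, adjusted p = 0.0254). DDIT4, an inhibitor of mTORC1, rose without glucose in both genotypes (2.24, adjusted p = 0.0168, in KMT2D-WT and 1.51, adjusted p = 0.000398, in KMT2D-KO). LOX, a collagen crosslinking enzyme, was higher in KMT2D-KO cells with glucose (2.57 ± 0.22, adjusted p = 0.000123) and rose on deprivation in KMT2D-WT cells (1.90, adjusted p = 0.0184), from 1.86 to 2.90 CPM to 7.62 to 9.87 CPM. In experiment 2 the changes with deprivation cannot be told apart from the way of counting. Over the pairs of experiment 1, STC2 (2.19) and DDIT4 (1.48) were called and LOX (0.55) was not. NT5E, the ecto-nucleotidase CD73, was lower in KMT2D-KO cells in both conditions (−1.17, adjusted p = 0.0303, and −1.21, adjusted p = 0.035).

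**Figure D5:**
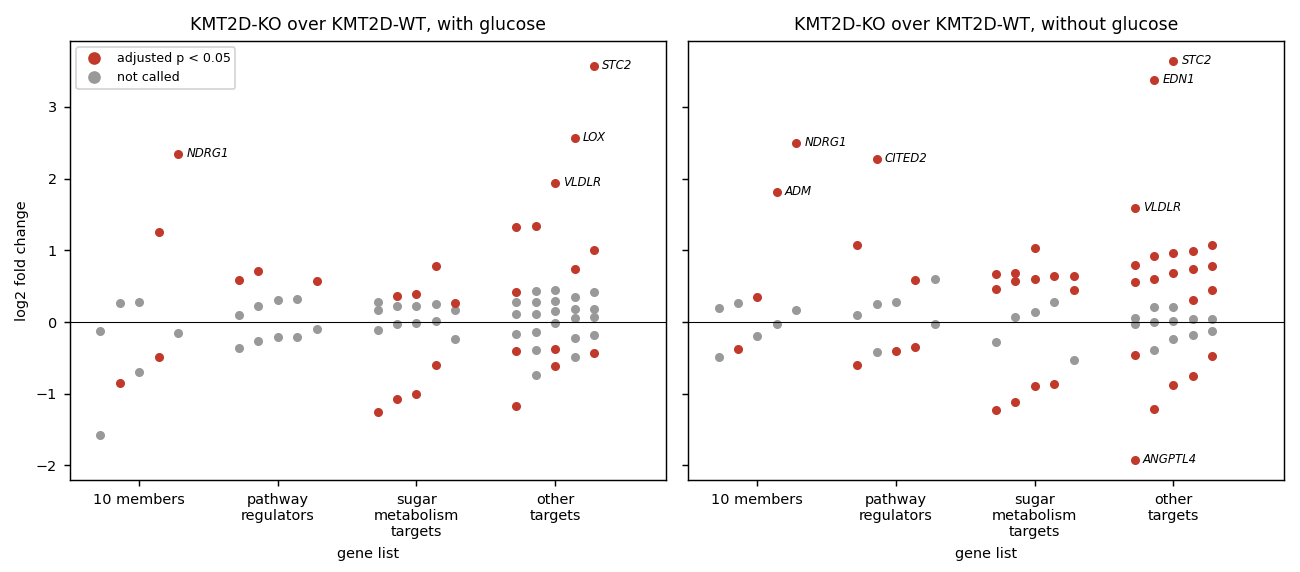
Log2 fold change of KMT2D-KO over KMT2D-WT (vertical axis) for the 10 HIF genes and the 3 further lists, with glucose (left) and without (right); each point is a gene, red where the adjusted p was under 0.05, and genes called with a change above 1.5 in size are named. Every list has called genes in both directions in both panels except the pathway regulators with glucose, where the 3 called genes are all higher.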

How the data were processed

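RNA was measured by polyA-selected RNA-seq in 14 libraries of SCC23 cells. Per the labels and the paper's methods, the authors aligned reads to GRCh38 with HISAT2. Per the file headers, the authors counted primary alignments on exons with featureCounts 2.0.3 and the Ensembl 102 annotation, without strand and by gene name, and deposited raw read counts, which hold no normalization. The paper describes uniquely mapped reads; the headers do not show whether others were removed before counting. In 4 libraries, those of experiment 2 with glucose, both mates of a pair were counted. Groups came from the labels. Nothing in the labels says that replicates were separate cultures, so p-values measure the spread between these libraries, which may be technical.

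The 10 genes and the lists of other HIF genes and markers were chosen with earlier results of these data known. Counts were filtered with filterByExpr (minimum count 10), TMM scaled and tested with the quasi-likelihood test of edgeR 4.0.16 in R 4.3.3, with Benjamini-Hochberg adjustment over all genes tested and 0.05 as threshold. Experiment was a covariate (within each glucose condition for the interaction) because the genotypes were spread unevenly over the experiments; the authors' methods name DESeq2 and no covariate. The 3 lines of experiment 1 were also compared as pairs. Of each further list, up to 3 called genes with the largest change in each direction per comparison could be named; 1 such gene is not reported here. The methods were tested on simulated counts. Alternatives were RLE and library-size scaling, other filters, DESeq2 1.42.0, no covariate, halving those 4 libraries, summed close pairs, 1 fit with a separate mean for each genotype, glucose condition and experiment, single experiments or lines and each library left out in turn. The test between lines KO2 and KO1 was added after the data had been seen. Promoter sequences were taken from RefSeq windows of GRCh38.p14, and positions in them are distances from the RefSeq start.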

Additional observations from a re-analysis of the deposited data

Results flagged for a closer look

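The interaction term was called for 3 of the 10 genes, with a log2 difference of 1.57 for ADM, 0.50 for EPAS1 and 0.49 for P4HA1, each more positive without glucose. Over all genes 4.73% were called in that direction and 6.54% in the other. All 3 calls were lost with a separate mean for each genotype, glucose condition and experiment. ADM was higher than KMT2D-WT of its experiment in 4 of 4 KMT2D-KO libraries without glucose and in 2 of 4 with glucose. EPAS1 was lower in 4 of 4 in both conditions, and less so without glucose. P4HA1 was higher in 4 of 4 without glucose and in 2 of 4 with glucose. With glucose its ratios were 1.05 and 1.04 in experiment 1 and 0.82 and 0.86 in experiment 2. The P4HA1 interaction was 0.25 in experiment 1 and 0.65 in experiment 2. Of the 4 KMT2D-KO libraries without glucose, those of experiment 2 were nearly alike (chi-square per gene of 1.78), so they may not count as separate lines.

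Among the further lists the interaction was 1.98 for CITED2 and −0.55 for VHL among the regulators, 0.41 for GAPDH and 0.37 for GPI among the sugar metabolism targets, and 2.06 for EDN1, 0.71 for PLOD1, −2.05 for ANGPTL4, −1.95 for LOX and −0.91 for HILPDA among the other targets. ANGPTL4 was at most 1.41 CPM in every library.

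In KMT2D-KO cells with glucose, CA9 in 1 library (line KO1 of experiment 1, 0.86 CPM from 14 counts) stood apart from the other 3 (0.061 to 0.194 CPM), its gap to the nearest being 0.834 of the range of the 4 libraries. Chance marks about 1 in 20 such groups, and 20 groups were examined.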

How the results depend on the processing

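In edgeR's test, 17 results for the 10 genes were called, 5 stayed called in every alternative, 12 lost the call in at least 1, and none changed sign. The 5 were EPAS1 and NDRG1 between the genotypes with glucose, NDRG1 and ADM between the genotypes without glucose, and ADM on deprivation in KMT2D-KO cells. Of the 43 results not called, 48 of 772 alternative values were called and 72 took the other sign, 1 of these with a call (ADM in line KO1 with glucose). The cause of these changes was not tested. The counts of genes called in the next paragraph are of the 10 HIF genes only, and the ranges over all genes follow after it.

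With no replicate block, that is without experiment (or, in the pairs of experiment 1, line) in the model, the genes called higher numbered 1 for genotype with glucose, 1 for deprivation in KMT2D-KO, 0 for the interaction and 0 for the pairs of experiment 1, and the genes called lower numbered 1 for genotype with glucose, 0 for genotype without glucose and 0 for deprivation in KMT2D-WT, and the log2 fold change took the other sign for CA9 −0.05 in deprivation in KMT2D-WT and EPAS1 −0.03 in the pairs of experiment 1. With scaling by library size the genes called higher numbered 1 for deprivation in KMT2D-KO, 1 for the interaction and 0 for the pairs of experiment 1, and the genes called lower numbered 3 for genotype without glucose, and the log2 fold change took the other sign for CA9 −0.06 and EGLN3 −0.08 in genotype without glucose, EPAS1 −0.19 and KDM3A −0.02 in deprivation in KMT2D-KO, HIF1A −0.07, NDRG1 −0.06 and KDM3A −0.21 in the interaction and HIF1A −0.03, EPAS1 −0.12 and KDM3A −0.10 in the pairs of experiment 1. With RLE scaling the genes called higher numbered 1 for deprivation in KMT2D-WT, and the log2 fold change took the other sign for HIF1A 0.03 in genotype without glucose. With no filter on low counts the genes called higher numbered 3 for deprivation in KMT2D-WT, 1 for the interaction and 2 for the pairs of experiment 1. With a minimum count of 30 the log2 fold change took the other sign for EPAS1 −0.01 in deprivation in KMT2D-KO and KDM3A 0.00 in the interaction. With DESeq2 and the same covariates the genes called higher numbered 3 for deprivation in KMT2D-WT and 5 for deprivation in KMT2D-KO, and the log2 fold change took the other sign for HIF1A 0.03 in genotype without glucose. With the counts of the 4 libraries of experiment 2 with glucose halved the log2 fold change took the other sign for CA9 −0.02 in deprivation in KMT2D-WT. With the close pairs summed the genes called higher numbered 1 for deprivation in KMT2D-KO and 0 for the interaction, and the genes called lower numbered 0 for genotype without glucose, 0 for deprivation in KMT2D-WT and 0 for deprivation in KMT2D-KO, and the log2 fold change took the other sign for CA9 −0.01 in deprivation in KMT2D-WT and KDM3A −0.06 in the interaction. With a separate mean for each genotype, glucose condition and experiment the genes called higher numbered 6 for deprivation in KMT2D-KO and 0 for the interaction, and the log2 fold change took the other sign for CA9 −0.08 and ANKRD37 −0.03 in deprivation in KMT2D-WT and KDM3A −0.04 in the interaction. For experiment 1 in that fit the genes called higher numbered 1 for genotype with glucose and 0 for the interaction, and the genes called lower numbered 1 for genotype with glucose, 0 for genotype without glucose, 0 for deprivation in KMT2D-WT and 0 for deprivation in KMT2D-KO, and the log2 fold change took the other sign for HIF1A 0.05 and P4HA1 0.06 in genotype with glucose, CA9 −0.35, ANKRD37 −0.15 and P4HA1 0.01 in deprivation in KMT2D-WT, KDM3A 0.00 in deprivation in KMT2D-KO and HIF1A −0.07 and KDM3A −0.30 in the interaction. For experiment 2 in that fit the genes called higher numbered 1 for genotype with glucose, 5 for deprivation in KMT2D-KO and 0 for the interaction, and the genes called lower numbered 0 for genotype without glucose, and the log2 fold change took the other sign for HIF1A 0.00 and EGLN3 −0.10 in genotype without glucose, BNIP3 −0.02 in deprivation in KMT2D-WT, EPAS1 −0.14 in deprivation in KMT2D-KO and ANKRD37 −0.06 in the interaction. With the libraries labelled KO1 alone the genes called lower numbered 4 for genotype with glucose, and the log2 fold change took the other sign for ADM −0.40 in genotype with glucose and CA9 −0.08 in genotype without glucose. With the libraries labelled KO2 alone the genes called higher numbered 4 for genotype with glucose, and the genes called lower numbered 2 for genotype without glucose, and the log2 fold change took the other sign for HIF1A 0.01 and EGLN3 −0.02 in genotype without glucose. In the main design the genes called numbered 2 higher and 2 lower for genotype with glucose, 3 and 1 without glucose, 0 and 1 for deprivation in KMT2D-WT, 3 and 1 in KMT2D-KO, 3 and 0 for the interaction, and 1 and 0 for the pairs of experiment 1. With each library left out in turn, the genes called numbered 1 to 3 higher for genotype with glucose, 1 to 2 lower for genotype without glucose, 0 to 2 higher for deprivation in KMT2D-WT, 0 to 2 lower for deprivation in KMT2D-WT, 1 to 4 higher for deprivation in KMT2D-KO, 0 to 1 lower for deprivation in KMT2D-KO, 0 to 4 higher for the interaction and 1 to 2 higher for the pairs of experiment 1. The sign changed for values that were not called, with the ranges in genotype with glucose of ADM −0.01 to 0.53; in genotype without glucose of EGLN3 −0.15 to 0.45; in deprivation in KMT2D-WT of CA9 −0.41 to 0.57, EGLN3 −0.25 to 0.10, BNIP3 −0.01 to 0.14 and ANKRD37 −0.09 to 0.10; in deprivation in KMT2D-KO of EPAS1 −0.09 to 0.07; in the interaction of NDRG1 −0.15 to 0.57, ANKRD37 −0.09 to 0.41 and KDM3A −0.08 to 0.18; in the pairs of experiment 1 of EPAS1 −0.15 to 0.18, CA9 −0.23 to 1.07, ANKRD37 −0.06 to 0.45 and KDM3A −0.08 to 0.27.

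Replicate numbers pair no cultures, so experiment, which the labels give, served as the replicate block. Over all genes, the difference between experiments correlated between the genotypes at 0.93 with and 0.86 without glucose. For genotype with glucose, 2658 higher and 2384 lower ranged over the alternatives from 495 to 3739 and from 476 to 3534, and without glucose 4342 and 4179 ranged from 1517 to 6136 and from 1268 to 6312. For deprivation in KMT2D-WT, 1231 and 1305 ranged from 0 to 4749 and from 0 to 4004, and in KMT2D-KO 2240 and 2573 ranged from 363 to 4924 and from 1102 to 4423. For the interaction, 884 and 1221 ranged from 2 to 2137 and from 5 to 2402, and for the pairs of experiment 1, 77 and 100 ranged from 0 to 367 and from 0 to 995. The precision of CA9 is limited by its 4 to 41 counts per library.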

Other observations

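Some genes of the further lists changed with glucose deprivation in 1 genotype's test. In KMT2D-WT cells PFKFB3 and HK2, which drive early glycolysis, rose (log2 fold changes 0.75, adjusted p = 0.0237, and 0.64, adjusted p = 0.0211, edgeR), and the coactivator gene EP300 fell (−0.24, adjusted p = 0.039). SPAG4 (−1.17, adjusted p = 0.0419) and NT5E (−0.52, adjusted p = 0.0275) fell as well. In KMT2D-KO cells ALDOA, a glycolytic aldolase (0.76, adjusted p = 0.00793), and PDK1, an inhibitor of pyruvate dehydrogenase (0.61, adjusted p = 0.031), rose, while PDK3, a kinase of the same family, fell (−0.76, adjusted p = 0.0238). HILPDA, a lipid droplet protein (−1.07, adjusted p = 0.00581), and the mitochondrial adenylate kinase gene AK4 (−1.01, adjusted p = 0.04) also fell, and so did HIF1AN (−0.58, adjusted p = 0.00479) and VHL (−0.36, adjusted p = 0.0435). Differences between the genotypes in these responses were tested only by the interaction, which called VHL and HILPDA of the genes named here. In experiment 2 these contrasts cannot be told apart from the way of counting. In the pairs of experiment 1, which are free of this, every gene named here kept its sign and none was called. There SPAG4 was at −0.15, NT5E at −0.19, AK4 at −0.16 and PDK3 at −0.35, while HK2 was at 0.57 and HILPDA at −0.80.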
